A study of Mus musculus with 8 samples.

Results

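The subject is the transcripts of the proteasome in mouse CD8 T cells: every gene of the deposited table whose symbol begins with Psma, Psmb, Psmc, Psmd, Psme, Psmf or Psmg followed by a digit. The rule takes 48 of 13204 genes, and all 48 passed the filter on low values described below. The study set CD8 T cells carrying FcgRIIB on their surface (FcgRIIB+, 4 libraries) against cells lacking it (FcgRIIB-, 4 libraries). FcgRIIB is an Fc receptor that binds IgG and passes an inhibitory signal into the cell. Cells of both groups were OT-I cells, which carry a transgenic T cell receptor for an ovalbumin peptide; 1000000 of them were given to each recipient 24 hours before it received OVA-expressing skin. On day 14 after grafting, 3 spleens were pooled per replicate, and 1000 cells of each kind were sorted from the same pool as CD44hi Thy1.1+ CD8+. The gate sets the group, so a group is what the sort collected, and no genotype or treatment separates the groups. The labels name neither the recipients' strain nor ages. A replicate number joins the positive and the negative library of 1 pool, called a pair below.

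The proteasome is the protease that degrades proteins tagged with ubiquitin. Its core particle, 20S, is a barrel of alpha and beta subunits whose catalytic sites lie on 3 of the beta subunits, and its regulatory cap, 19S, recognises, unfolds and admits tagged proteins. In lymphocytes, antigen-presenting cells and cells exposed to interferon-gamma the constitutive catalytic subunits Psmb5, Psmb6 and Psmb7 are replaced by Psmb8, Psmb9 and Psmb10, which gives the immunoproteasome, and peptides from it are loaded on class I molecules. PA28, built from Psme1 and Psme2, is another cap of the core that interferon-gamma induces.

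By role the 48 genes are 7 alpha subunits, 4 beta subunits without a catalytic site, 3 constitutive and 3 immunoproteasome catalytic subunits, 6 ATPases and 11 other subunits of 19S, 5 activators or inhibitors, and 7 assembly chaperones. The remaining 2 match the symbol rule and were kept apart from these roles. Psmc3ip encodes a factor of DNA recombination, and Psmb11 is the catalytic subunit of the proteasome of cortical thymic epithelium. Copies of these genes limit single values: the RefSeq gene table has 9 further symbols of this pattern, 6 of them pseudogenes of Psma5, Psmb5, Psmb6 and Psmb7, and one of the others, Psme2b, is a near copy of Psme2. Reads shared with those copies could not be told apart here, nor could reads from genes that overlap Psme1, Psme4, Psmc3ip and Psmd10, since the labels do not say whether strand was used.

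The libraries held between 3060000 and 22000000 reads, as recovered from the RPKM values (read numbers divided by exon length and by library depth), and replicates 1 and 2 of both groups were deeper (at least 16470000) than replicates 3 and 4 (at most 7360000). Fcgr2b, which encodes the receptor used for sorting, was at 69.9, 55.2, 39.1 and 29.6 RPKM in positive libraries 1 to 4 and at 3.19, 4.82, 1.82 and 4.76 RPKM in negative libraries 1 to 4, so the labels and the gene go the same way. The labelled cell type was checked against markers. Genes of the core T cell list were present in every library, but their summed level was 2243 to 4853 RPKM in the positive and 5919 to 9439 RPKM in the negative libraries, and 0 of 16 were called (7 were called lower with the pairs in the fit). Dendritic cell genes were higher in positive libraries, 11 of 14 called, with sums of 602.3 to 1238 RPKM against 28.8 to 84.5 RPKM and a single value of 0, that of Clec10a in 1 negative library. Macrophage and monocyte genes were higher as well, 11 of 15 called, with sums of 3791 to 7551 against 433.2 to 1994 RPKM. Of 7 tested B cell genes 1, Fcrla, was called higher, with list sums of 87.0 to 216.7 against 97.4 to 446.1 RPKM, and 0 of 5 erythroid and platelet genes were called. These values stand beside every comparison of the groups below, and their part in those comparisons was not tested; in such pools fewer cells of a type and less RNA per cell cannot be told apart.

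Short stretches of sequence show what the starts of 4 of these genes look like, chosen because the inducing signals of the immunoproteasome act through known motifs and because Psmg1 is the gene called below. RefSeq windows of 300 bases (250 before the start and 50 after) were found for 41 of the 48 genes. They were searched on both strands for TTCNNNGAA (gamma-activated sequence), GAAANNGAA (core of the interferon-stimulated element), TGACNNNGC (core of the antioxidant response element) and CCAAT. The stretches are from GRCm38.p6, read 5′ to 3′ along the gene, with the match in capitals: chr17:34198088-34198116 on the plus strand for Psmb8, chr16:95991185-95991210 on the minus strand for Psmg1, chr14:55578494-55578522 on the plus strand for Psme1 and chr14:54618024-54618052 on the minus strand for Psmb5.
Psmb8: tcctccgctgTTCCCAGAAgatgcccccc
Psmg1: actcatgTTCTCTGAAtccgcttgca
Psme1: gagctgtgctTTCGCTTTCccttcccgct
Psmb5: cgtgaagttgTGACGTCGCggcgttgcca

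The Psmb8 match begins 97 bases before the RefSeq start, inside an exon of the longer GENCODE model. That of Psmg1 begins 243 bases before the start and that of Psmb5 47 bases before it, both upstream of every GENCODE transcript, and that of Psme1 begins at base 11 of the RefSeq transcript, in an exon. Windows with TTCNNNGAA were 3 of 41 (7.32%, against 9.55% of 27025 genes), belonging to Psmb8, Psmd2 and Psmg1. GAAANNGAA was in 7 (17.1% against 9.76%), Psme1 and Psmg4 among them, TGACNNNGC in 6 (14.6% against 14.0%) and CCAAT in 15 (36.6% against 41.1%). Psmb9 had a CCAAT match and none of the other motifs, and Psmb10 had none of the 4. A match is a run of letters in this window and says nothing of binding.

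**Figure D1:**
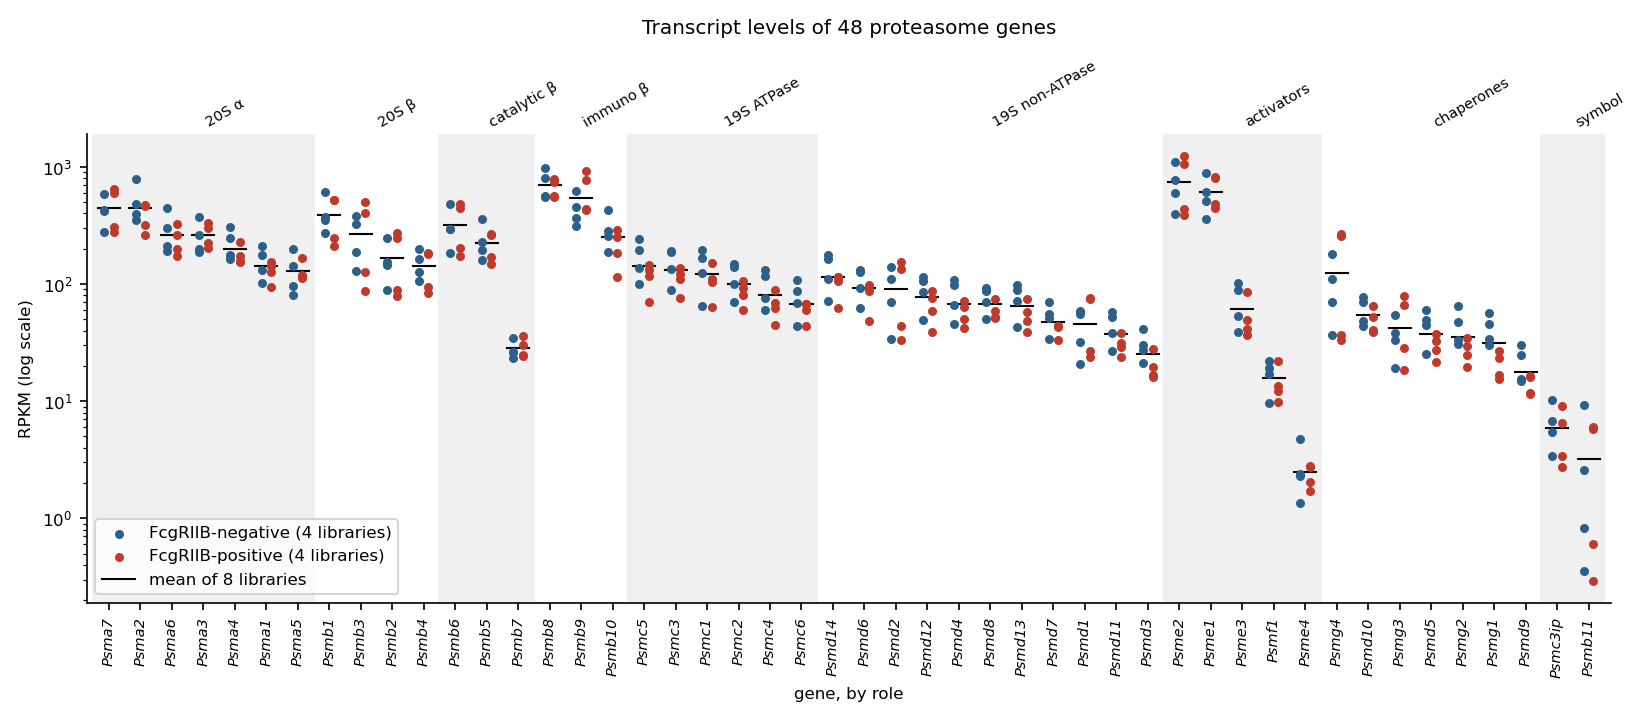
RPKM (log axis) of the 48 genes in each library, by role, with 1 point per library and a bar at the mean of 8 libraries. The immunoproteasome subunits Psmb8 and Psmb9 and the PA28 subunits Psme1 and Psme2 have the 4 highest means, and Psmb7 lies far below the other catalytic subunits.

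Levels, in RPKM and so per length, differed more between genes than between groups. The 4 highest means over 8 libraries were those of Psme2 (749), Psmb8 (695), Psme1 (614.5) and Psmb9 (539), all of them genes that interferon-gamma induces. Next came the alpha subunits Psma7 (444) and Psma2 (442). Subunits of 19S were lower, with means from 25.1 RPKM (Psmd3) to 142.5 RPKM (Psmc5, an ATPase), against 28.3 to 694.7 RPKM among the 17 subunits of 20S. Psmb7, at 28.3 RPKM, was the lowest of those 17; the file gives it an exon length of 3289 bases, against 917 for Psmb5 and 1036 for Psmb6, and the part of that length in its RPKM was not tested. Lowest of all was Psme4, the large nuclear activator PA200, at 2.50 RPKM, below even Psmb11 at 3.22 RPKM and Psmc3ip at 5.96 RPKM.

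No member was called higher or lower in FcgRIIB+ cells at an adjusted p under 0.05 (limma on log2(RPKM + 1), Benjamini-Hochberg over 11946 genes). Across all genes tested 3.03% were called higher and 0.268% lower. Before adjustment, at p under 0.05, 0 members were higher (7.48% of all genes) and 1 was lower (4.67% of all genes), Psmg1. With the pairs in the fit Psmg1 was called lower and 0 members were called higher, against 3.85% and 7.22% of all genes. The median log2 fold change of the members was -0.26, against -0.11 over all genes tested and -0.24 over the 3503 genes with a mean of at least 20 RPKM, a level chosen after values were seen. Below 0 lay 37 of 48 members (77.1%), against 61.2% of all genes and 71.7% of the genes at 20 RPKM or more. Libraries were also rescaled to the mean log2(RPKM + 1) of the core T cell genes, which moves the median of all genes to 0.63. On that core T cell scale the members' median was 0.61 and 47 of 48 lay above 0, so the sign of the group depends on the scale. With the pairs in the fit as well, 28 of 48 members were called higher on the core T cell scale, against 35.1% of all genes. Those are mostly lower genes, with a median level of 8.67 RPKM against 95.8 RPKM for the members. The share among genes at 20 RPKM or more was not computed on that scale. Without rescaling, leaving out 1 library at a time gave members' medians from -0.44 (without negative replicate 4) to -0.14 (without negative replicate 3). Precision was low: the median standard error was 0.40, and for only 5 of 48 members did the 95% interval lie within a 2-fold change either way.

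**Figure D2:**
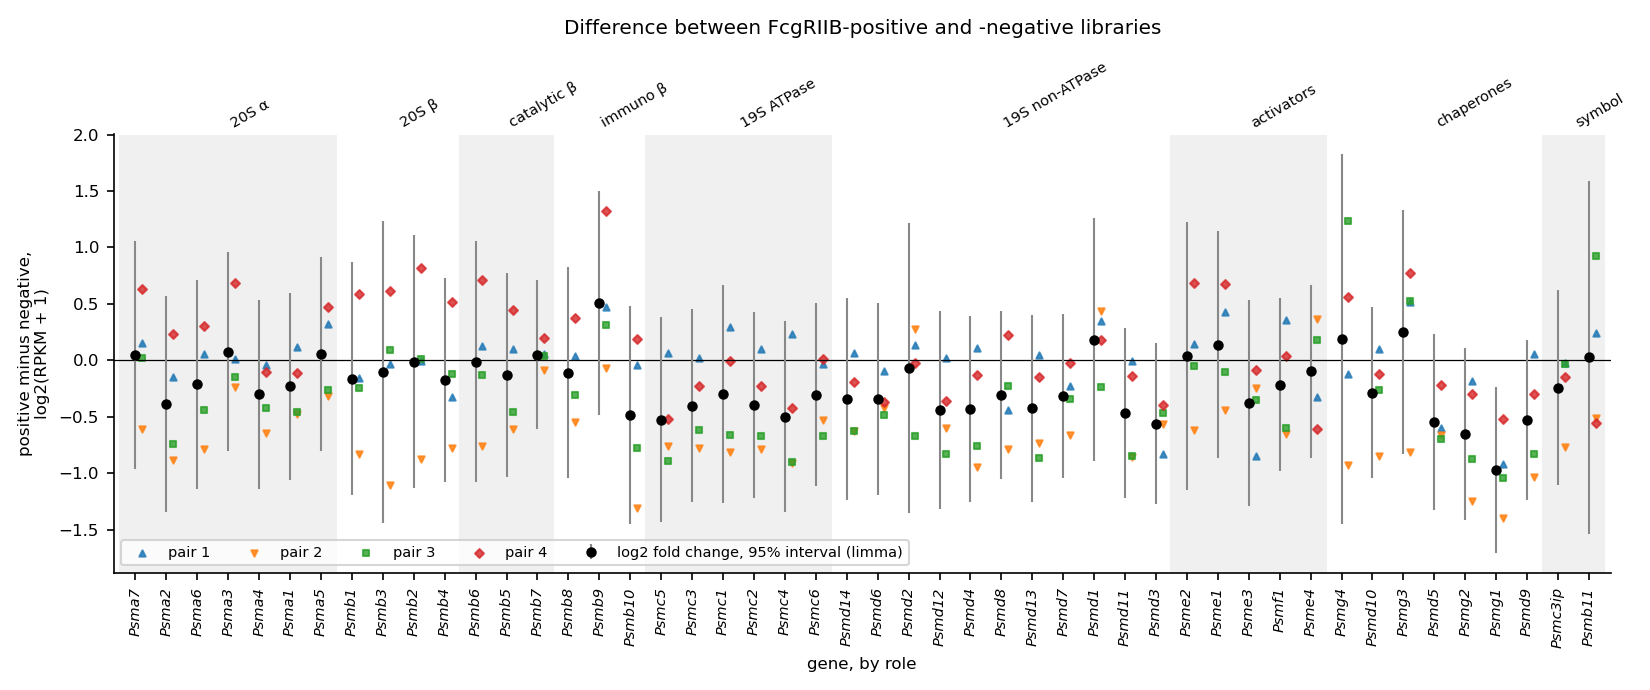
Difference between positive and negative libraries on the log2(RPKM + 1) scale for each gene, by role: black points are log2 fold changes with 95% intervals from limma, coloured symbols the 4 pairs. Pair 2 lies below 0 for 45 of 48 genes, Psmg1 has the only interval that does not reach 0, and after rescaling to core T cell genes 47 of 48 points would lie above 0.

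The pairs did not move alike. Over the 48 genes the median difference was 0.04 in pair 1, -0.70 in pair 2, -0.43 in pair 3 and -0.02 in pair 4, with 20, 45, 39 and 25 genes below 0. Lower in 4 of 4 pairs were 10 members (20.8%, against 19.8% of all genes tested), among them Psmg1, Psmd3, Psme3 and Psmc3ip. Higher in 4 of 4 pairs were 0 members, against 10.3% of all genes. Groups that did not overlap were found for 1 member, Psmg1, in the lower direction (4.15% of all genes) and for 0 in the higher direction (4.61%).

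The log2 fold changes of the immunoproteasome subunits differed in sign, but none was called in the main fit and each 95% interval included 0. On the core T cell scale their median was 0.812, and 47 of 48 members lay above 0, all but Psmg1. Psmb9, the immunoproteasome counterpart of the caspase-like subunit Psmb6, was at 438, 431, 771 and 917 RPKM in positive libraries 1 to 4 and at 315, 451, 622 and 366 RPKM in negative libraries 1 to 4. Positive libraries 3 and 4 were the highest of the 8, and the groups overlapped. Positive minus negative, its log2 difference came to 0.51 (SE 0.45; limma adjusted p = 0.822). An exact permutation test over libraries, which ignores the pairs, gave p = 0.229, where the smallest p possible is 0.0286. With the pairs in the fit (limma) the adjusted p was 0.398. On the core T cell scale Psmb9 had the smallest adjusted p of the members, 0.103 (limma). With the pairs in that fit (limma) the adjusted p was 0.000225 and Psmb9 was called higher, as were 35.1% of all genes. Psmb8, the counterpart of the chymotrypsin-like subunit Psmb5, was at 567, 551, 793 and 739 RPKM in positive libraries 1 to 4 and at 554, 805, 979 and 568 RPKM in negative libraries 1 to 4. Its groups overlapped and its highest value was negative library 3, with a log2 fold change of -0.11 (SE 0.43; limma adjusted p = 1.000) and an exact permutation p = 0.571. Psmb10, the counterpart of the trypsin-like subunit Psmb7, was at 183, 114, 251 and 292 RPKM in positive libraries 1 to 4 and at 189, 284, 429.9 and 255 RPKM in negative libraries 1 to 4. Its lowest value was positive library 2 and its highest negative library 3, and the groups differed on the log2 scale by -0.48 (SE 0.44; limma adjusted p = 0.834), with an exact permutation p = 0.257.

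None of the constitutive catalytic subunits was called either. Psmb5 was at 171, 149, 260.0 and 266 RPKM in positive libraries 1 to 4 and at 159.7, 227, 358 and 195 RPKM in negative libraries 1 to 4, with a log2 fold change of -0.13 (SE 0.41; limma adjusted p = 1.000) and an exact permutation p = 0.714. Psmb6 was at 202, 172, 443 and 479.6 RPKM in positive libraries 1 to 4 and at 186, 293, 486 and 292 RPKM in negative libraries 1 to 4, with a log2 fold change of -0.01 (SE 0.49; limma adjusted p = 1.000) and an exact permutation p = 0.943. In both genes libraries 3 and 4 were above libraries 1 and 2 of the same group, except that for Psmb6 negative library 4 was level with negative library 2, and that for Psmb5 it was below it. Psmb7 was at 24.5, 24.7, 35.8 and 30.2 RPKM in positive libraries 1 to 4 and at 23.5, 26.3, 34.9 and 26.3 RPKM in negative libraries 1 to 4, the tightest of the 6, with a log2 fold change of 0.05 (SE 0.30, 95% interval -0.61 to 0.71, within a 2-fold change; limma adjusted p = 1.000) and an exact permutation p = 0.800.

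Ratios within a library remove the library's scale, so they were compared as log2 ratios of RPKM + 1, as a description with no p. Psmb9/Psmb6 was 2.16, 2.49, 1.74 and 1.91 in positive libraries 1 to 4 and 1.69, 1.54, 1.28 and 1.25 in negative libraries 1 to 4. Every positive library lay above every negative one. The pair differences were 0.35, 0.69, 0.44 and 0.61, with a mean of 0.52 ± 0.16 (SD, n = 4) on the log2 scale, a ratio 1.44 times as high. Of all other tested genes, 2.73% had a ratio to Psmb6 that was higher in positive libraries without overlap. Psmb6 has pseudogene copies, as said above, and their part in the ratio was not tested.

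The other positions did not follow. Psmb8/Psmb5 was 3.304, 3.69, 3.04 and 2.77 in positive libraries 1 to 4 and 3.46, 3.53, 2.73 and 2.91 in negative ones, overlapping, with a mean log2 difference of 0.02 ± 0.11 (SD, n = 4). Psmb10/Psmb7 was 7.20, 4.47, 6.85 and 9.37 in positive libraries and 7.73, 10.4, 12.02 and 9.40 in negative ones. It was lower in 4 of 4 pairs, by amounts that differed (log2 differences of -0.10, -1.22, -0.81 and -0.01), and the groups overlapped. The share of all genes whose ratio to Psmb7 was lower in 4 of 4 pairs was not computed. Over the 3 positions together the mean log2 difference was 0.004 ± 0.147 (SD, n = 4), and the groups overlapped.

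**Figure D3:**
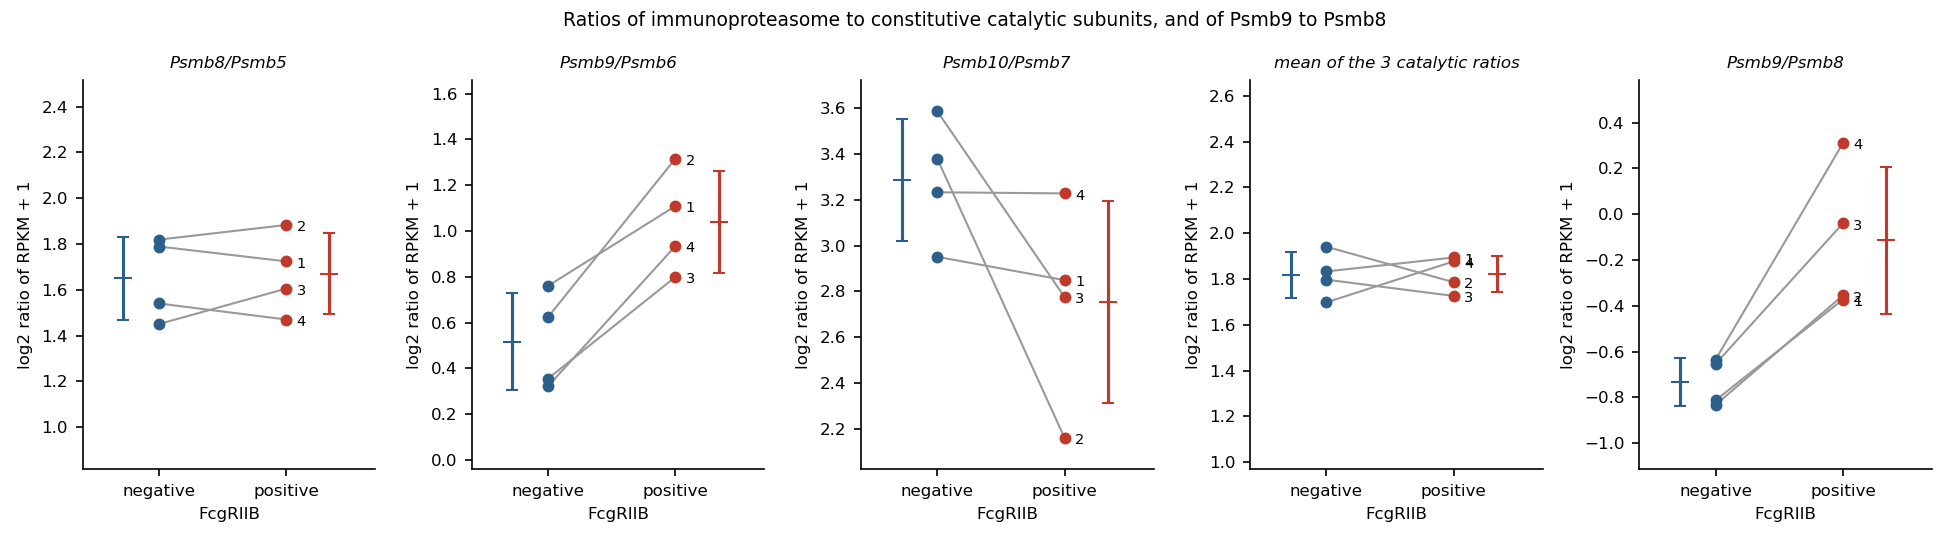
log2 ratios of RPKM + 1 in each library, with lines joining the 2 libraries of a pair (numbers), bars for mean and SD of each group, and axes that differ in position but share 1 span. Psmb9/Psmb6 and Psmb9/Psmb8 are higher in all 4 positive libraries than in any negative one, while the mean of the 3 catalytic ratios overlaps.

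Psmb9 and Psmb8 both lie in the class II region of the major histocompatibility complex, with Tap1 between them, and their ratio was set beside those above after values were seen. In the GENCODE models the starts of Psmb9 and Tap1 overlap on opposite strands, so reads there could not be told apart. Psmb9/Psmb8 was 0.772, 0.782, 0.973 and 1.24 in positive libraries and 0.569, 0.562, 0.635 and 0.644 in negative ones, with no overlap and a mean log2 difference of 0.62 ± 0.23 (SD, n = 4); 3.70% of genes had such a separation from Psmb8. Psmb9/Psmb10 was 2.39, 3.75, 3.06 and 3.14 against 1.67, 1.59, 1.45 and 1.43, with a mean log2 difference of 0.99 ± 0.32 (SD, n = 4), and 5.26% of genes separated from Psmb10 in this direction. These 3 ratios share Psmb9 and so are not independent of each other. The dendritic and macrophage marker sums given above are higher in the same 4 libraries, and their part in the ratios was not tested.

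Activators showed no call. Psme1, a subunit of PA28, was at 484, 448, 818 and 810.2 RPKM in positive libraries 1 to 4 and at 359, 609, 881 and 507 RPKM in negative libraries 1 to 4, with a log2 fold change of 0.14 (SE 0.46; limma adjusted p = 1.000). Psme2, its partner, was at 433, 392, 1059 and 1242 RPKM in positive libraries 1 to 4 and at 392, 601, 1099 and 772 RPKM in negative libraries 1 to 4, with a log2 fold change of 0.04 (SE 0.55; limma adjusted p = 1.000). In the positive group libraries 3 and 4 were above 1 and 2 for both genes, and the groups overlapped. Their mean over that of the constitutive 20S subunits was higher in 4 of 4 pairs (mean log2 difference 0.20 ± 0.08, SD, n = 4), but the groups overlapped. The share of all genes whose ratio to that 20S mean was higher in 4 of 4 pairs was not computed. Psme3, the nuclear activator PA28 gamma, had a log2 fold change of -0.38 (SE 0.42; limma adjusted p = 0.901) and was lower in 4 of 4 pairs. Psmf1, the inhibitor PI31, was at -0.22 and Psme4 at -0.10 on the same scale of log2 fold change, neither called.

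The 17 subunits of 19S lay below 0 in 16 cases, with a median log2 fold change of -0.40, which became 0.515 on the core T cell scale. The 17 of 20S lay below 0 in 12 cases, with a median of -0.11, which became 0.811 on that scale. Before rescaling, 61.2% of all genes tested lay below 0, and 71.7% of those at 20 RPKM or more. The sign of the 20S median also turned when 1 library was left out, to 0.02 without positive replicate 1, 0.07 without positive replicate 2 and 0.09 without negative replicate 3, and it was at most -0.115 without any of the others (lowest -0.29, without negative replicate 1). The 19S median stayed below 0 in these runs, from -0.62 without negative replicate 4 to -0.23 without positive replicate 4. By pair the 19S median was not alike, at 0.05, -0.74, -0.67 and -0.15 in pairs 1 to 4. In these pairs 6, 15, 17 and 14 of the 17 subunits of 19S lay below 0. None of either was called, against the 3.03% higher and 0.268% lower given above. The 19S mean over the constitutive 20S mean was 0.533, 0.528, 0.238 and 0.181 in positive libraries and 0.543, 0.509, 0.314 and 0.273 in negative ones. Pairs 1 and 2 were level (log2 differences of -0.03 and 0.05), while pairs 3 and 4 were lower in the positive library (-0.40 and -0.59), and the groups overlapped.

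Among 19S genes Psmd3, a subunit of the lid, was at 16.7, 27.8, 19.5 and 16.0 RPKM in positive libraries 1 to 4 and at 30.3, 41.5, 27.3 and 21.3 RPKM in negative libraries 1 to 4. It was lower in 4 of 4 pairs, with overlapping groups and a log2 fold change of -0.56 (SE 0.33; limma adjusted p = 0.604). Psmc5, the most abundant ATPase transcript, had a log2 fold change of -0.53 (SE 0.42; limma adjusted p = 0.779). Psmd1, a scaffold subunit, was at 74.9, 75.5, 26.8 and 23.6 RPKM in positive libraries 1 to 4 and at 58.6, 55.5, 31.7 and 20.7 RPKM in negative libraries 1 to 4 and is the one 19S gene above 0, with a log2 fold change of 0.18 (SE 0.49; limma adjusted p = 1.000). Its libraries fell into high (1 and 2) and low (3 and 4) in both groups. Psmd14, the deubiquitinase of the lid, had a log2 fold change of -0.34 (SE 0.41; limma adjusted p = 0.923).

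In the core, Psma7, Psma3 and Psma5 were the alpha subunits above 0, at 0.05, 0.08 and 0.06 on the log2 scale, and Psma2 was the lowest, at -0.38. Psmb2 (-0.01), Psmb3 (-0.11), Psmb1 (-0.165) and Psmb4 (-0.17) completed the beta subunits without a catalytic site, Psmb3 being named only to complete them. The 95% interval of each of these 8 genes included 0, and on the core T cell scale 47 of the 48 members lay above 0.

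The assembly chaperones held the member with the smallest p before any rescaling. Psmg1, which forms with Psmg2 a dimer that starts the alpha ring, was at 15.4, 16.8, 27.0 and 23.3 RPKM in positive libraries 1 to 4 and at 30.1, 46.0, 56.8 and 33.9 RPKM in negative libraries 1 to 4. The highest positive library, 27.0 RPKM, lay below the lowest negative one, 30.1 RPKM, and the means were 20.6 ± 5.46 and 41.7 ± 12.2 RPKM (SD, n = 4 each). The fit gave a log2 fold change of -0.97 (SE 0.34; limma adjusted p = 0.207), and it was lower in 4 of 4 pairs. With the pairs in the fit (limma) the adjusted p was 0.00733; without pair 3 that p was 0.0617, and on the core T cell scale the log2 fold change was -0.08 with an adjusted p of 0.774, where all genes had a median of 0.63. Relative to the constitutive 20S mean of the same library it was lower by log2 differences of -0.94, -0.75, -0.81 and -0.95 in pairs 1 to 4, a mean of -0.86 ± 0.10 (SD, n = 4). That ratio did not overlap between groups either, a separation that 1.52% of genes showed.

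**Figure D4:**
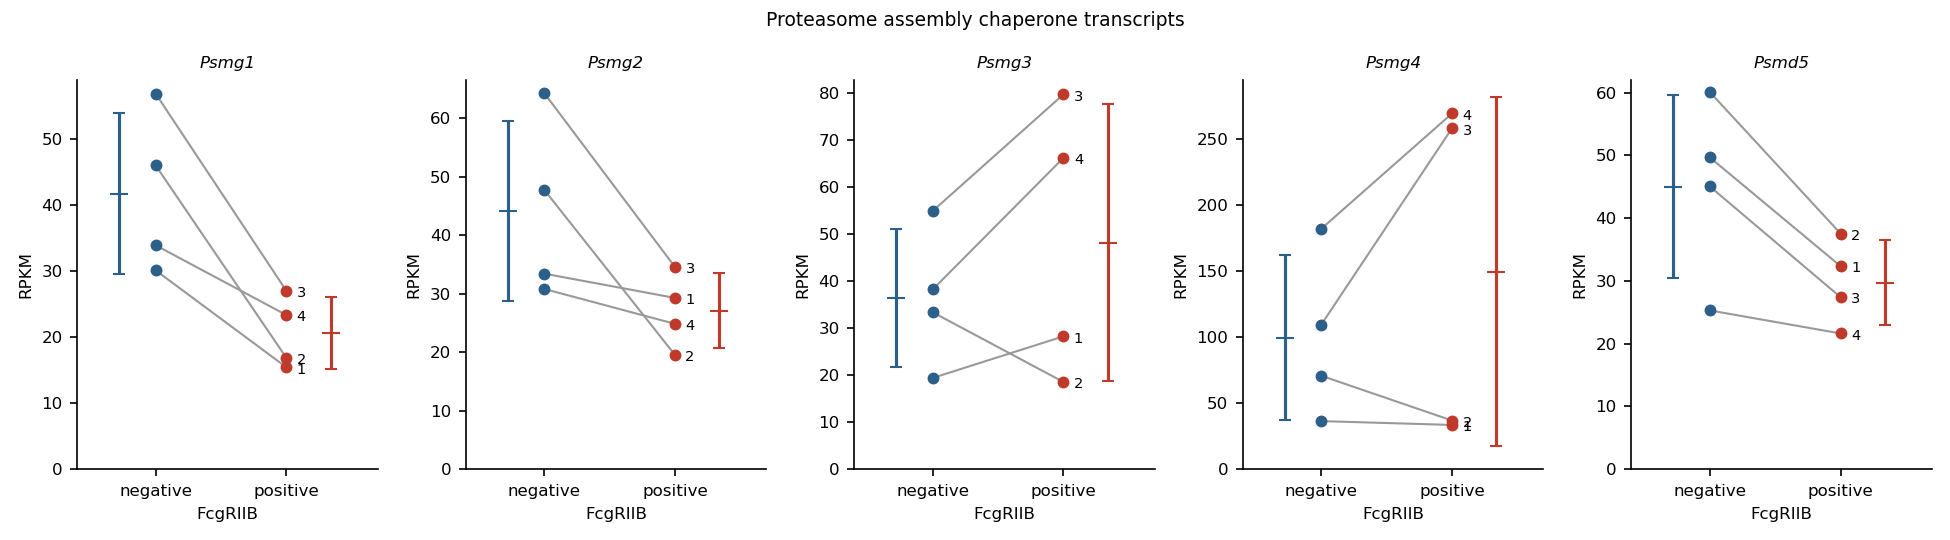
RPKM of 5 assembly chaperones in each library from 0 upward, lines joining the libraries of a pair (numbers) and bars for mean and SD. Psmg1 is lower in every pair without overlap, Psmg2 and Psmd5 are lower in every pair with overlap, and Psmg3 and Psmg4 differ by replicate.

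Psmg2 and Psmd5 were looked at after values were seen. Psmg2 was at 29.3, 19.5, 34.6 and 24.9 RPKM in positive libraries 1 to 4 and at 33.4, 47.8, 64.3 and 30.8 RPKM in negative libraries 1 to 4, lower in 4 of 4 pairs with overlap, with a log2 fold change of -0.65 (SE 0.35; limma adjusted p = 0.536) and an adjusted p of 0.0914 with the pairs in the fit (limma). Psmd5, a chaperone of the 19S base, had a log2 fold change of -0.55 (SE 0.36; limma adjusted p = 0.674) and was lower in 4 of 4 pairs. Psmd9, another base chaperone, had a log2 fold change of -0.53 (SE 0.33; limma adjusted p = 0.642). Psmg3 and Psmg4, the partners in another dimer that acts on the alpha ring, were at 0.25 and 0.19. Psmg4 was at 33.4, 36.8, 258 and 269 RPKM in positive libraries 1 to 4 and at 36.3, 70.7, 109 and 182 RPKM in negative libraries 1 to 4, high in positive libraries 3 and 4, and it has the widest interval of the members.

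Replicates 3 and 4 differed from 1 and 2 in these genes in both groups. The 20S subunits were higher in replicates 3 and 4 in 16 of 17 cases in each group, by medians of 0.72 in positive and 0.35 in negative libraries on the log2(RPKM + 1) scale. Higher there were 46.0% of all genes tested in positive and 49.8% in negative libraries, and 42.0% and 35.1% of the genes at 20 RPKM or more. The 19S subunits were lower in 16 of 17 and 17 of 17, by medians of -0.385 and -0.31. Medians were -0.10 and -0.00 over all genes tested (54.0% and 50.2% lower). Over the genes at 20 RPKM or more, which were not matched to the 19S genes in level, they were -0.24 and -0.34 (58.0% and 64.9% lower). The 19S medians lay near these last, but a larger share of the 19S subunits was lower, 94.1% in positive and 100% in negative libraries. Psmd2 and Psmb3 are named after their values were seen. Psmd2 went furthest down, by -1.885 in positive and -1.33 in negative libraries, while Psmb3 went up by 2.09 and 1.17 and Psmg4 by 2.875 and 1.46.

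**Figure D5:**
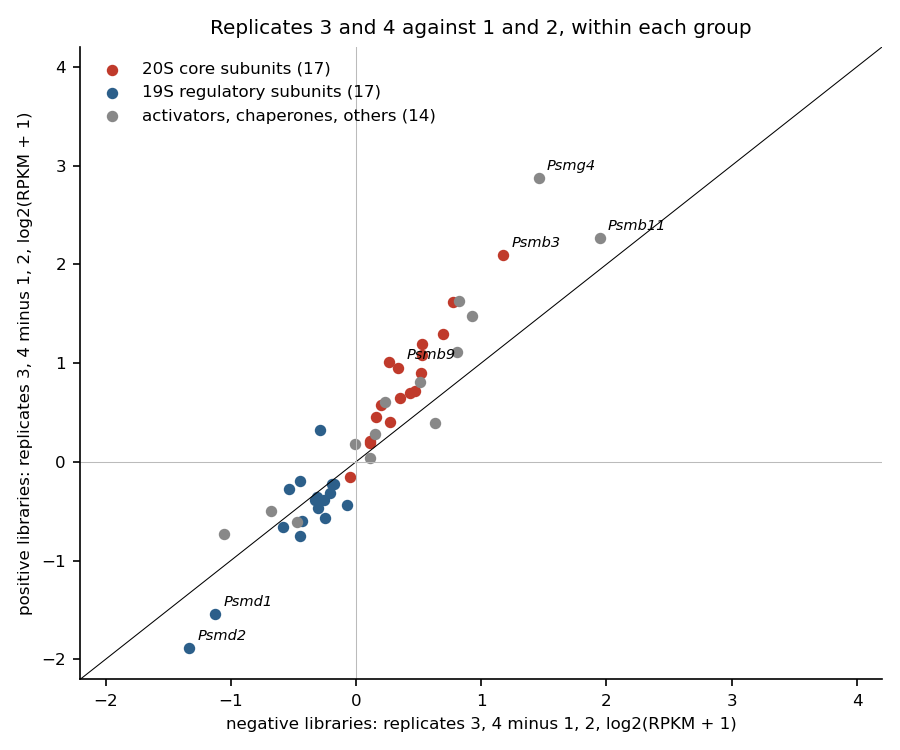
Mean of replicates 3 and 4 minus mean of 1 and 2 on the log2(RPKM + 1) scale, negative libraries (x) against positive libraries (y), 1 point per gene, with the line of equality. The 20S genes lie mostly up and right, the 19S genes mostly down and left, with Pearson's r of 0.95 over 48 genes.

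Across the 48 genes these differences correlated between the groups at r = 0.95 (Pearson; genes are not independent replicates). Against log2 exon length, Spearman's rho was -0.53 in positive and -0.51 in negative libraries over the 48 genes and -0.33 and -0.15 over all genes tested. Median length was 1096 bases for 20S and 2059 bases for 19S genes. Depth differed between the same replicates, and the part of length or depth was not tested.

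Genes that work with the proteasome were taken from lists by function. Of 13 proteasome-associated genes, 15 genes of ubiquitin and shuttle factors and 12 of class I presentation, 0 were called. Pomp, the chaperone that promotes assembly of the immunoproteasome, had a log2 fold change of 0.59 (SE 0.575; limma adjusted p = 0.861) and Tap1, the peptide transporter whose gene adjoins Psmb9, one of 0.48 (SE 0.51; limma adjusted p = 0.893), higher in 4 of 4 pairs. Of 12 interferon signalling genes 2 rose. Irf8, a transcription factor also characteristic of dendritic cells, was at 148, 258, 126 and 122 RPKM in positive libraries 1 to 4 and at 14.9, 22.1, 6.57 and 15.7 RPKM in negative libraries 1 to 4, without overlap, a log2 fold change of 3.42 (SE 0.42; limma adjusted p = 0.000869). Ifngr2, a chain of the interferon-gamma receptor, was at 20.03, 43.9, 26.9 and 23.4 RPKM in positive libraries 1 to 4 and at 1.53, 8.77, 2.62 and 7.27 RPKM in negative libraries 1 to 4, without overlap, a log2 fold change of 2.44 (SE 0.45; limma adjusted p = 0.0103). Socs1, an inhibitor of interferon signalling, had a log2 fold change of -1.05, called only with the pairs in the fit (limma adjusted p = 0.00666, against 0.192 without them).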

How the data were processed

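Poly(A) RNA of 8 libraries, 4 positive and 4 negative, was sequenced after cDNA synthesis with SMART-seq v4 and library construction with NexteraXT, per the labels' protocols. The deposited values are RPKM per gene, computed by the authors per exon length, which the file gives in bases, per the file headers. Alignment software TopHat2 (no version) and build mm9 appear in the submitters' processing notes. The method of read assignment and any use of strand are not given in the sources used here. RPKM are not counts, so limma 3.58.1 (R 4.3.3; lmFit, eBayes with trend, two-sided) was fitted on log2(RPKM + 1), and group was its single term. Of 13204 genes, a filter of 1 RPKM or more in 4 or more libraries kept 11946 for testing and left out 1258; P-values were adjusted by the Benjamini-Hochberg method over all genes tested, with a threshold of 0.05. Fold changes, positive minus negative, are on that log2(RPKM + 1) scale and so understate how far low genes differ. For 9 genes an exact permutation test, two-sided, over the 35 distinct splits into 4 and 4 was run. Those splits ignore the pairs and take all 8 libraries as independent, which libraries of 1 pool are not. Ratios were described with no p.

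Depth was recovered from the steps of values under 60 reads (tolerance 0.1 reads). Both libraries with 1 replicate number come from 1 pool, per the series design text, and the 2 libraries of a pair deviated together from their group means (correlations of 0.70, 0.41, 0.56 and 0.68), so a fit that adds the replicate block was run beside the main one. P-values of the main fit measure the spread between libraries of a group, each from its own pool of spleens, and take the 2 libraries of a pair as independent. Those of the fit with the block measure the spread of the pair differences between pools.

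The members and the lists were chosen with earlier results of these data known. Named members were the catalytic, activator and inhibitor genes, every gene called in either fit, and the highest and lowest of each role in mean RPKM and fold change; others are said to be chosen after values were seen. Gene IDs of all 48 members matched the RefSeq table of GRCm38, used for names and neighbouring genes only; promoter stretches are from RefSeq (GRCm38.p6), with GENCODE vM21 for exons. On simulated data for this comparison with 11946 genes, the fit without the block recovered 7.3% of 2-fold, 56% of 4-fold, 85.3% of 8-fold and 98% of 16-fold changes. The simulated noise was independent between libraries and genes, without the deviations that real pairs and replicates share. These shares may therefore differ from those in the real data, and the fit with the block was not simulated. Alternatives were other pseudocounts, filters and scalings, the block, and each library left out.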

Additional observations from a re-analysis of the deposited data

Results flagged for a closer look

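Psmd14, the deubiquitinase of the 19S lid, was at 62.4 RPKM in positive replicate 4, below the 114.5, 106.1 and 113.8 RPKM of positive replicates 1 to 3. On the log2(RPKM + 1) scale the gap to the nearest value was 0.875 of the range, which passes the 95% limit of Dixon's test for 4 samples. Replicate 4 was the lowest of the negative libraries too, at 71.3 RPKM. The positive group of Psmd14 was 1 of 80 groups of 4 libraries examined, and chance alone passes that limit in about 1 of 20. Only the 30 named members and the ratios were examined, so members not named may pass it as well. Positive replicate 4 is one of the shallower libraries (5310000 reads), and the part of depth was not tested.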

How the results depend on the processing

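With the replicate block 1 member was called lower, Psmg1, and it changed no other call among the members. The same count of 1 came with the block after quantile normalization, after rescaling by median ratios and after rescaling to a common sum, and when pair 1, 2 or 4 was left out. Rescaling to the mean log2(RPKM + 1) of the core T cell genes moved the median log2 fold changes. They became 0.515 for 19S ATPases, 0.569 for other 19S subunits and 0.515 for all 19S subunits. In 20S they were 0.705 for alpha subunits, 0.783 for beta subunits without a catalytic site, 0.905 for constitutive and 0.812 for immunoproteasome catalytic subunits, and 0.811 for all. Activators and the inhibitor had 0.649, chaperones 0.353, Psmc3ip with Psmb11 0.525 and all members 0.61, where all genes had 0.629. The block leaves medians as they are, and with it on that scale 28 members were called higher, as were 35.1% of all genes. Of the named ones called there, these had been below 0 before: Psmb1 (0.755), Psmb2 (0.903), Psmb4 (0.742), Psmb5 (0.788), Psmb6 (0.905), Psmb8 (0.812), Psmc1 (0.616), Psmc6 (0.604) and Psmd14 (0.570). The cause was not tested. In the runs without 1 library Psmb9/Psmb6 had log2 differences of 0.43 to 0.61. Its direction could not turn there, since its groups do not overlap. Psmb10/Psmb7, whose groups overlap, stayed at -0.69 to -0.34. Over all genes, 362 were called higher and 32 lower, against 863 and 460 with the block, 900 and 2 on the core T cell scale, and 178 to 503 and 5 to 45 when 1 library was left out (178 and 5 without negative replicate 3); the widest values over all settings were 178 to 4193 and 2 to 511. The settings that combine the block with a scaling or with a pair left out were chosen after seeing the data. Replicate spread and 4 libraries a group limit precision, and a member that was not called may still differ by 2-fold.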
